A study of Mus musculus with 16 samples.

Results

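The costimulatory and checkpoint ligands described here are 10 genes of antigen-presenting cells, Cd80, Cd86, Icosl, Cd40, Cd83, Tnfsf9, Tnfsf4, Cd70, Cd274 and Pdcd1lg2, chosen by gene symbol from the 23356 genes of the deposited table. All 10 had a valid estimate in every condition. RNA was sequenced from C57BL/6 bone marrow-derived dendritic cells (BMDCs), cultured for 6 days in GM-CSF and IL-4, from sex-matched mice of 6 to 12 weeks of age. The BMDCs were wild-type (WT), Tmem173-/- (lacking STING, the receptor of cyclic dinucleotides), Irf1-/- or Irf3/7-/- (a double knockout), and each genotype was left untreated (NT) or given c-di-GMP (CDG), a bacterial cyclic dinucleotide, for 18 h. The sample labels give a c-di-GMP concentration of 25 µg/ml. There were 16 samples, 2 per condition, and the authors combined replicates into 1 FPKM value (a read density normalised to transcript length and library size) and 1 confidence interval for each of the 8 conditions. Differences are therefore described against those intervals, with no replicate spread and no p-value. The germline knockouts affect every cell of the culture, and BMDC cultures hold cells other than dendritic cells. Fewer expressing cells and less RNA per cell cannot be told apart in these bulk values.

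A T cell that recognises its antigen needs further signals from the presenting cell. The B7 proteins CD80 and CD86 bind CD28, which promotes activation, and CTLA-4, which restrains it, while ICOS ligand (Icosl) binds ICOS. CD40 receives a signal from activated helper T cells through CD40 ligand, and CD83 marks mature dendritic cells and stabilises surface MHC class II and CD86. The TNF superfamily ligands 4-1BBL (Tnfsf9), OX40L (Tnfsf4) and CD70 bind 4-1BB, OX40 and CD27 and sustain T cell responses, whereas PD-L1 (Cd274) and PD-L2 (Pdcd1lg2) bind the inhibitory receptor PD-1.

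In each deleted genotype at least 1 targeted transcript was lower than in WT. Tmem173 was at 8.97 and 7.49 FPKM in untreated and treated Tmem173-/- BMDCs, against 103 and 118 FPKM in WT. Irf1 was at 25.9 and 116 FPKM in untreated and treated Irf1-/- BMDCs, against 149 and 245 FPKM in WT. It was low in Tmem173-/- BMDCs too, at 24.1 and 23.3 FPKM. Irf7 was at 1.07 and 4.97 FPKM in BMDCs labelled Irf3/7-/-, against 15.2 and 687 FPKM in WT, and at 3.17 and 3.37 FPKM in Tmem173-/-. Irf3 was at 7.74 FPKM in untreated but at 20.2 FPKM in treated BMDCs labelled Irf3/7-/-, against 19.9 and 15.8 FPKM in WT, so the treated condition goes against its label for Irf3 and matches it for Irf7. An FPKM value covers the whole gene and may include transcript outside the deleted part. Both conditions are called labelled Irf3/7-/- throughout.

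Markers of other cells also differed between conditions. Dendritic cell markers summed to between 5347 and 8402 FPKM, and 9 or 10 of the 10 genes reached 1 FPKM in every condition, but Cd209a was below 1 FPKM in 5 of 8. Cd74 made up most of this sum in each condition, at 4278 and 4983 FPKM in untreated and treated WT, so the sum says little about the other markers. The 8 T cell markers summed to 69.6 and 49.8 FPKM in untreated and treated WT, 1.42 and 1.45 FPKM in Tmem173-/-, 6.21 and 10.0 FPKM in Irf1-/- and 96.1 and 170 FPKM in BMDCs labelled Irf3/7-/-. Cd4 stayed at 0.154 FPKM or below in all conditions, while Cd8a reached 60.8 FPKM. The 7 neutrophil markers in the table summed to 11695 and 8574 FPKM in Tmem173-/-, against 2669 and 1264 FPKM in WT. Most of each sum was S100a8, at 10351 FPKM in untreated Tmem173-/- and 2531 FPKM in untreated WT. The 8 macrophage markers summed to 586 and 551 FPKM against 185 and 329 FPKM. Between treated Tmem173-/- and treated WT, 4 of these 8 were called higher and 1, Mertk, lower. Of all genes tested, 12.9% and 13.5% were. All 7 basophil and mast cell markers were called higher in treated BMDCs labelled Irf3/7-/- than in treated WT, where 4.61% of all genes were. The part of these cells in the ligand values was not tested.

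The loci of the deposited table lie on the GRCm38 mouse genome. Cd80 lies on chromosome 16 at chr16:38458933-38486932 and Cd86 on the same chromosome at chr16:36603869-36666077. Cd274 at chr19:29367438-29388094 and Pdcd1lg2 at chr19:29410919-29472927 are neighbours, with a gap of 22.8 kb. Tnfsf9 (chr17:57092023-57107757) and Cd70 (chr17:57145997-57149777) are separated by 38.2 kb, and the Tnfsf9 locus overlaps Gm11110 on the opposite strand, which was at 1.18 to 3.96 FPKM. The single genes were Cd40 at chr2:165055636-165071654, Cd83 at chr13:43785107-43803132, Icosl at chr10:78069368-78079525 and Tnfsf4 at chr1:161395438-161418206. All are protein-coding genes.

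RefSeq promoter windows (GRCm38.p6) matched 4 of the 10 genes, Cd80, Cd274, Pdcd1lg2 and Icosl. The 250 bases before the start used in each window, which is the start of the deposited locus, were searched on both strands for an IRF element (a pair of GAAA repeats 2 bases apart), a GAS element (TTCNNNGAA), a kappaB element (GGGNN followed by TTTCC) and an AP-1 element (TGANTCA). Of 32851 mouse promoter windows, 3.44%, 8.3%, 1.63% and 7.81% held them. Those shares cover whole windows of 300 bases, 50 of them after the start. The search found 1 match to these strings, an AP-1 element in Cd80 from base -42 to -36. Other forms of the 4 elements were not searched, so a window without a match may still hold one. A match in letters is a description and not a binding site. The RefSeq gene spans of Cd80 and Cd274 begin further upstream, at bases 38457430 and 29362107, so these windows lie inside the spans and bases before an upstream start were not searched. The windows of Cd80, which was called higher after c-di-GMP, and of Pdcd1lg2, which was not, are printed for comparison, both on the plus strand (chr16:38458683-38458932 and chr19:29410669-29410918), with the AP-1 letters in capitals.
Cd80: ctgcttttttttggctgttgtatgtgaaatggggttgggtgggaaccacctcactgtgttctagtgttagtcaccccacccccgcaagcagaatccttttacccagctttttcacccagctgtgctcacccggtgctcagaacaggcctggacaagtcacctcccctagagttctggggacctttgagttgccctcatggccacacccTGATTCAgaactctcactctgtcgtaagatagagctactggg
Pdcd1lg2: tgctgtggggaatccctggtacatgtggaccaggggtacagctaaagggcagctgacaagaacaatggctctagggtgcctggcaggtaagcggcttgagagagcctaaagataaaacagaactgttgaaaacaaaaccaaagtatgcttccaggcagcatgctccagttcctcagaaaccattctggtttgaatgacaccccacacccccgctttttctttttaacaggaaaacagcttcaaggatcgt

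The first question was which ligands change after c-di-GMP and in which genotypes. Calls of higher or lower required a difference of more than 2-fold on the scale of log2(FPKM + 0.1), deposited intervals that did not overlap and at least 1 FPKM in 1 of the conditions. In WT BMDCs 8 of 10 ligands were called higher after c-di-GMP and 0 lower, where 10.5% of the 11201 genes tested were called higher and 9.96% lower. The median log2 change of the 10 ligands was 1.94, against 0.00334 over all genes tested. The B7 costimulators Cd80 and Cd86, the maturation molecules Cd40 and Cd83, the 3 TNF superfamily ligands and Cd274 were the 8, and Icosl and Pdcd1lg2 were not called. The same 8 genes were called higher in Irf1-/- BMDCs and in BMDCs labelled Irf3/7-/-, where 9.67% and 10.2% of all genes tested were called higher. In Tmem173-/- BMDCs 0 of the 9 ligands that reached 1 FPKM were called in either direction, where 0.0552% of all genes tested were called.

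**Figure D1:**
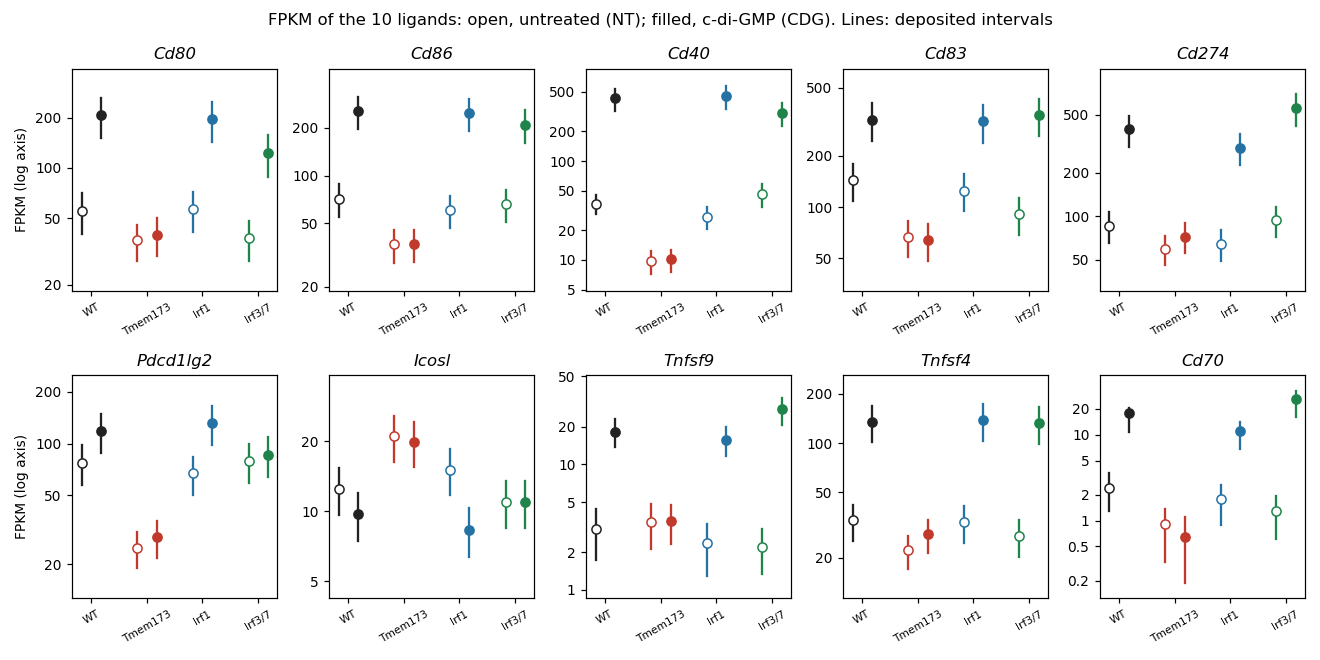
FPKM of each ligand (log axis, a separate scale per panel) in the 4 genotypes, open for untreated and filled for c-di-GMP-treated BMDCs, with lines for the deposited intervals; knockouts are given by the deleted gene as labelled. In every panel but Icosl the filled points of WT, Irf1-/- and Irf3/7-/- stand above the open ones, in 8 of them (all but Pdcd1lg2) with calls in all 3, and in all 10 the 2 Tmem173-/- intervals overlap.

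Cd80, which encodes B7-1, was at 55.6 FPKM (interval 40.0 to 70.5) in untreated and 207 FPKM (151 to 262) in treated WT BMDCs. It was at 36.9 and 39.8 FPKM in untreated and treated Tmem173-/-, at 56.9 and 197 FPKM in Irf1-/- and at 37.9 and 122 FPKM in BMDCs labelled Irf3/7-/-. The treated level was thus high in 3 genotypes and at the untreated level in Tmem173-/-, and of the 3 it was lowest in BMDCs labelled Irf3/7-/-, whose interval (88.4 to 156) just overlapped that of treated WT. The log2 change after c-di-GMP was 1.90 in WT (interval 1.35 to 2.45), 0.11 in Tmem173-/-, 1.79 in Irf1-/- and 1.69 in BMDCs labelled Irf3/7-/-.

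Cd86, which encodes B7-2, was at 71.7 FPKM (54.9 to 88.5) in untreated and 255 FPKM (196 to 314) in treated WT BMDCs. It was at 36.9 FPKM in both Tmem173-/- conditions, at 60.6 and 248 FPKM in untreated and treated Irf1-/- and at 66.2 and 210 FPKM in BMDCs labelled Irf3/7-/-. The intervals of the 3 other genotypes overlapped each other within each treatment, and untreated Tmem173-/- (28.2 to 45.6) lay below untreated WT without reaching the 2-fold threshold (log2 difference -0.96). The log2 change after c-di-GMP was 1.83 in WT (1.35 to 2.31), 0.00 (-0.47 to 0.47) in Tmem173-/-, 2.03 in Irf1-/- and 1.66 in BMDCs labelled Irf3/7-/-. The ratio of Cd86 to Cd80 FPKM was 1.29 in untreated and 1.23 in treated WT, 1.001 and 0.927 in Tmem173-/- and 1.07 and 1.26 in Irf1-/-, with an interval that held 1 in each. In BMDCs labelled Irf3/7-/- it was 1.75 (1.23 to 2.49) untreated and 1.71 (1.19 to 2.46) treated, above 1 in both.

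Icosl, whose product binds ICOS, behaved unlike the other B7 genes. It was at 12.5 FPKM (9.61 to 15.3) in untreated and 9.70 FPKM (7.45 to 11.9) in treated WT BMDCs, at 21.0 and 19.9 FPKM in Tmem173-/-, at 15.1 and 8.33 FPKM in Irf1-/- and at 11.0 FPKM in both conditions labelled Irf3/7-/-. The highest 2 values were those of Tmem173-/- and the lowest was treated Irf1-/-. The log2 change after c-di-GMP was -0.36 (-0.82 to 0.11) in WT and -0.85 (-1.32 to -0.38) in Irf1-/-, where the FPKM intervals did not overlap but the difference stayed under 2-fold.

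Cd40, the receptor for CD40 ligand, had the largest log2 change of the 10 in WT. It was at 37.0 FPKM (28.8 to 45.2) in untreated and 432 FPKM (325 to 540) in treated WT BMDCs, an 11.6-fold difference (log2 change 3.54, interval 3.06 to 4.02) that ranked 129 from the top of 11201 genes tested. It was at 9.82 and 10.1 FPKM in untreated and treated Tmem173-/-, at 27.3 and 457 FPKM in Irf1-/- and at 46.3 and 305 FPKM in BMDCs labelled Irf3/7-/-. The treated values of WT, Irf1-/- and the cells labelled Irf3/7-/- overlapped in their intervals, while both Tmem173-/- values lay below every other value of the gene. The log2 change was 4.06 (3.54 to 4.58) in Irf1-/- and 2.72 (2.20 to 3.24) in BMDCs labelled Irf3/7-/-.

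Cd83 was the most abundant of the 10 in untreated WT, at 143 FPKM (108 to 179), and rose to 325 FPKM (244 to 406) with treatment. Its log2 change of 1.18 (0.67 to 1.69) was the smallest among the 8 called genes. It was at 67.2 and 63.8 FPKM in untreated and treated Tmem173-/-, at 125 and 319 FPKM in Irf1-/- and at 90.6 and 347 FPKM in BMDCs labelled Irf3/7-/-. The treated values of the 3 other genotypes lay within 319 to 347 FPKM, and all exceeded the Tmem173-/- values. The log2 change was 1.35 in Irf1-/- and 1.94 in BMDCs labelled Irf3/7-/-.

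Among the TNF superfamily ligands, Tnfsf4 (OX40L) was at 33.8 FPKM (25.3 to 42.1) in untreated and 134 FPKM (101 to 168) in treated WT BMDCs. It was at 22.2 and 27.7 FPKM in Tmem173-/-, at 32.9 and 137 FPKM in Irf1-/- and at 27.2 and 132 FPKM in BMDCs labelled Irf3/7-/-. The 3 treated values above 100 FPKM spanned only 132 to 137 FPKM, and the log2 changes were 1.99 in WT (1.48 to 2.49), 2.06 in Irf1-/- and 2.27 in BMDCs labelled Irf3/7-/-, against 0.32 (-0.14 to 0.78) in Tmem173-/-.

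Tnfsf9 (4-1BBL) was expressed at a lower level, at 3.08 FPKM (1.72 to 4.45) in untreated and 18.2 FPKM (13.6 to 22.8) in treated WT. It was at 3.50 and 3.57 FPKM in Tmem173-/-, at 2.34 and 15.7 FPKM in Irf1-/- and at 2.22 and 27.3 FPKM in BMDCs labelled Irf3/7-/-. All untreated intervals overlapped, and the treated value of the cells labelled Irf3/7-/- (20.6 to 34.0) was the highest. The log2 change was 2.53 in WT (1.81 to 3.24), 0.03 in Tmem173-/-, 2.70 in Irf1-/- and 3.57 in BMDCs labelled Irf3/7-/-. How the antisense gene Gm11110 contributes to this value was not tested.

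Cd70, the ligand of CD27, was the least abundant of the 10 in every untreated condition. It was at 2.42 FPKM (1.28 to 3.54) in untreated and 17.7 FPKM (10.8 to 20.4) in treated WT, at 0.922 and 0.641 FPKM in Tmem173-/-, at 1.79 and 11.1 FPKM in Irf1-/- and at 1.29 and 26.1 FPKM in BMDCs labelled Irf3/7-/-. After c-di-GMP it thus ranged from below 1 FPKM in Tmem173-/-, where the gene was left out of the response test, to 26.1 FPKM. The log2 change was 2.82 in WT (2.07 to 3.58), 2.56 in Irf1-/- and 4.23 (3.41 to 5.05) in BMDCs labelled Irf3/7-/-, an 18.8-fold difference on the FPKM + 0.1 scale.

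Of the checkpoint ligands, Cd274 (PD-L1) was at 85.8 FPKM (65.4 to 106) in untreated and 398 FPKM (302 to 495) in treated WT BMDCs. It was at 59.6 and 72.5 FPKM in Tmem173-/-, at 64.9 and 297 FPKM in Irf1-/- and at 94.3 and 558 FPKM in BMDCs labelled Irf3/7-/-. The intervals of treated Irf1-/- (226 to 368) and treated WT overlapped, and those of treated Irf1-/- and the treated cells labelled Irf3/7-/- (419 to 696) did not. The log2 change was 2.21 in WT (1.72 to 2.70), 0.28 (-0.19 to 0.75) in Tmem173-/-, 2.19 (1.71 to 2.68) in Irf1-/- and 2.56 (2.07 to 3.06) in BMDCs labelled Irf3/7-/-.

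Pdcd1lg2 (PD-L2), the neighbouring gene, was at 77.4 FPKM (57.2 to 97.5) in untreated and 118 FPKM (88.4 to 148) in treated WT. It was at 24.9 and 28.7 FPKM in Tmem173-/-, at 67.3 and 132 FPKM in Irf1-/- and at 79.6 and 86.4 FPKM in BMDCs labelled Irf3/7-/-. The low values were those of Tmem173-/- in both treatments, and none of the 4 genotypes passed the 2-fold threshold after c-di-GMP. The log2 change was 0.61 (0.09 to 1.13) in WT, 0.97 (0.45 to 1.49) in Irf1-/-, where the intervals did not overlap, 0.21 in Tmem173-/- and 0.12 (-0.40 to 0.64) in BMDCs labelled Irf3/7-/-.

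**Figure D2:**
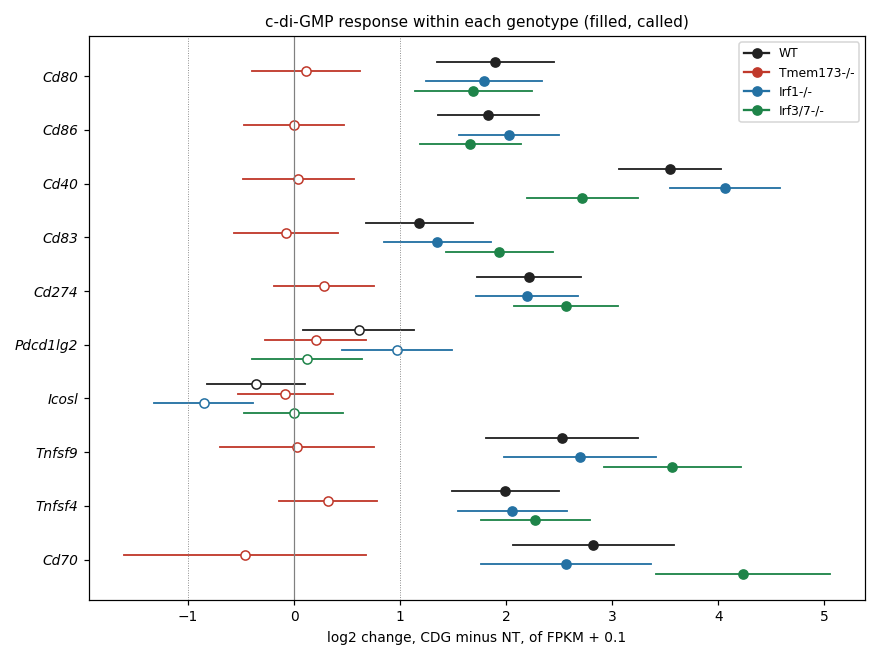
Log2 change after c-di-GMP (CDG minus NT, of FPKM + 0.1) for each ligand and genotype, with intervals carried over from the deposited bounds; filled points were called, and dotted lines mark 2-fold. The WT, Irf1-/- and Irf3/7-/- points of 8 ligands lie between 1.18 and 4.23, and every Tmem173-/- interval holds 0.

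The levels of the 2 PD-1 ligands diverged after treatment. Their FPKM ratio, Cd274 to Pdcd1lg2, was 1.11 (0.779 to 1.58) in untreated and 3.37 (2.38 to 4.78) in treated WT, 0.963 and 2.25 in Irf1-/-, and 1.19 (0.839 to 1.67) and 6.46 (4.52 to 9.24) in BMDCs labelled Irf3/7-/-. In these 3 genotypes the interval held 1 without treatment and lay above 1 with it. In Tmem173-/- the ratio was 2.39 (1.72 to 3.32) untreated and 2.52 (1.81 to 3.51) treated, so it was above 1 in both and its intervals overlapped.

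**Figure D3:**
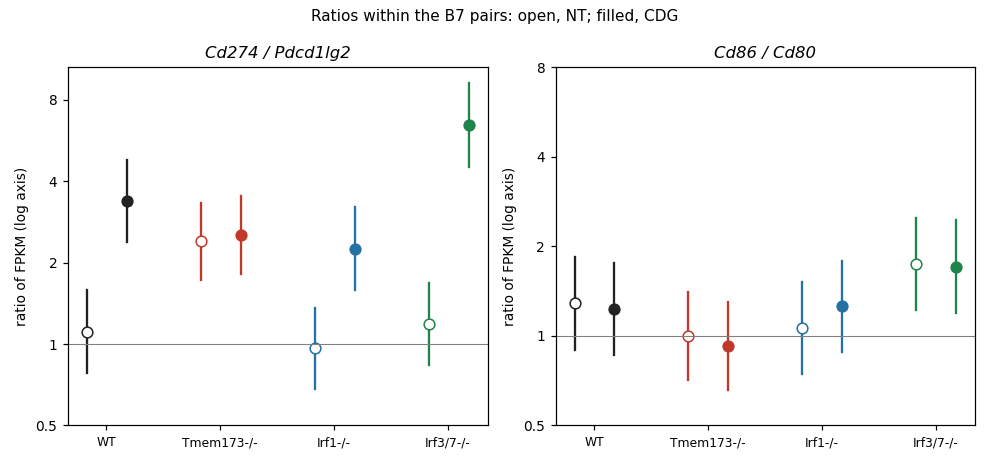
Ratio of FPKM (log axis) of Cd274 to Pdcd1lg2 on the left and of Cd86 to Cd80 on the right, by genotype as labelled, open for untreated and filled for treated BMDCs, with intervals. Cd274 to Pdcd1lg2 reached 3.37 in treated WT and 6.46 in treated Irf3/7-/-, while Cd86 to Cd80 stayed between 0.927 and 1.75.

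The order of the FPKM levels also changed with treatment. In untreated WT it ran Cd83, Cd274, Pdcd1lg2, Cd86, Cd80, Cd40, Tnfsf4, Icosl, Tnfsf9 and Cd70. The intervals of neighbours overlapped except between Cd83 and Cd274, between Tnfsf4 and Icosl and between Icosl and Tnfsf9. In treated WT it ran Cd40, Cd274, Cd83, Cd86, Cd80, Tnfsf4, Pdcd1lg2, Tnfsf9, Cd70 and Icosl, and neighbours did not overlap only between Pdcd1lg2 and Tnfsf9. Cd40 thus moved from sixth of the 10 to first and Icosl from eighth to last. In treated BMDCs labelled Irf3/7-/- the order began with Cd274 in place of Cd40, and in treated Tmem173-/- Cd40 stood eighth at 10.1 FPKM.

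The second question was how the treated genotypes differ, read against treated WT. The 3 comparisons share the treated WT values. In treated Tmem173-/- 9 of 10 ligands were called lower and 1 higher, where 13.5% of 11318 genes were called lower and 12.9% higher. Cd40 was 42.4-fold lower (log2 difference -5.41, interval -5.92 to -4.89) and Cd70 24.1-fold lower (-4.59, -5.54 to -3.63). The other 7 differed by -2.79 for Cd86, -2.46 for Cd274, -2.38 for Cd80, -2.35 for Cd83, -2.32 for Tnfsf9, -2.27 for Tnfsf4 and -2.04 for Pdcd1lg2 on the log2 scale. Icosl was 2.04-fold higher on that scale (1.03, 0.57 to 1.48), just past the threshold.

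In treated Irf1-/- BMDCs 0 of 10 ligands were called in either direction, where 7.56% of all genes tested were called. At that share few calls would be made among 10 genes. The log2 differences from treated WT ran from -0.68 (-1.29 to -0.07) for Cd70 and -0.42 (-0.91 to 0.07) for Cd274 to 0.16 (-0.36 to 0.68) for Pdcd1lg2. For Cd80, Cd86, Cd40, Cd83 and Tnfsf4 they lay between -0.08 and 0.08, with intervals no wider than -0.62 to 0.60. The absence of a call does not show equal levels, since the intervals of the log2 differences reach changes of about 1.5-fold for these genes. Among dendritic cell markers 4 of 9 tested were called lower in the same comparison, where 544 of 11079 genes were. They were the MHC class II genes H2-Aa, H2-Ab1 and H2-Eb1 and their regulator Ciita, and 0 were called higher. The other markers tested did not fall together. Itgax was at 255 against 135 FPKM and Flt3 at 2.33 against 1.17 FPKM, higher with separate intervals but not called. Zbtb46 was at 18.5 against 15.9 FPKM, Mgl2 at 194 against 184 FPKM and Cd74 at 3918 against 4983 FPKM. The part of these marker differences in the ligand values was not tested.

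In treated BMDCs labelled Irf3/7-/- 0 of 10 ligands were called against treated WT as well, where 7.3% of all genes tested were called. Few calls would be made among 10 genes at that share too. The lowest log2 difference was that of Cd80, at -0.76 (-1.31 to -0.20), followed by Cd40 at -0.50 (-1.02 to 0.01) and Pdcd1lg2 at -0.45 (-0.97 to 0.07). The highest were those of Tnfsf9, at 0.58 (0.08 to 1.09), Cd70, at 0.55 (-0.04 to 1.15), and Cd274, at 0.49 (-0.01 to 0.99). The log2 interval of Cd80 and of Tnfsf9 excluded 0, while their FPKM intervals overlapped those of treated WT. Compared directly, treated Irf1-/- BMDCs had 1 ligand called lower than treated BMDCs labelled Irf3/7-/-, Cd70 at 11.1 against 26.1 FPKM (log2 difference -1.23, -1.88 to -0.58), where 6.62% of 11235 genes were called lower and 3.22% higher. Cd274 (-0.91, -1.40 to -0.41) and Tnfsf9 (-0.79, -1.30 to -0.28) also had separate intervals in this comparison but stayed under 2-fold. Between these conditions the T cell marker sum was 10.0 against 170 FPKM, and CD70 is also made by activated T cells. Its part in the Cd70 difference was not tested.

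**Figure D4:**
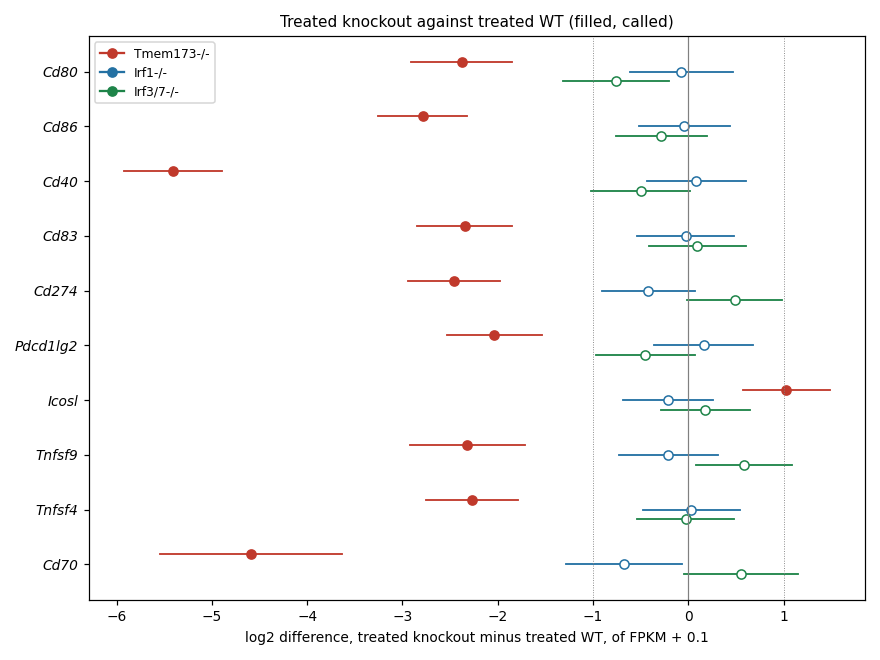
Log2 difference of each ligand between treated knockout and treated WT BMDCs (of FPKM + 0.1) with intervals; filled points were called, and dotted lines mark 2-fold. In Tmem173-/- 9 points lie between -5.41 and -2.04 and Icosl at 1.03, and all points of Irf1-/- and of the condition labelled Irf3/7-/- lie between -0.76 and 0.58.

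Without c-di-GMP, 3 ligands were called lower in Tmem173-/- than in WT and 0 higher, where 5.95% of 11101 genes were called lower and 5.04% higher. The 3 were Cd40 at 9.82 against 37.0 FPKM (log2 difference -1.90, -2.39 to -1.41), Pdcd1lg2 at 24.9 against 77.4 FPKM (-1.63, -2.14 to -1.13) and Cd83 at 67.2 against 143 FPKM (-1.09, -1.59 to -0.60). Cd70 was 2.47-fold lower on the FPKM + 0.1 scale (-1.30, -2.28 to -0.32), but its FPKM intervals overlapped. Cd86 at -0.96 and Icosl at 0.75 had separate intervals and less than a 2-fold difference. For Pdcd1lg2 the log2 differences from WT were -1.63 without and -2.04 with c-di-GMP, and for Cd274 they were -0.53 and -2.46. In untreated Irf1-/- and in untreated BMDCs labelled Irf3/7-/- 0 of 10 ligands were called, where 4.78% and 2.04% of all genes tested were called. Few calls would be made among 10 genes at those shares. The lowest log2 differences from untreated WT were -0.44 (-0.92 to 0.04) for Cd40 in Irf1-/- and -0.86 (-1.80 to 0.09) for Cd70 in BMDCs labelled Irf3/7-/-. In the latter the log2 interval excluded 0 for Cd83 (-0.66, -1.17 to -0.16) and for Cd80 (-0.55, -1.11 to -0.0006). The FPKM intervals of both overlapped those of untreated WT. The neutrophil and macrophage marker sums were 11695 and 586 FPKM in untreated Tmem173-/- against 2669 and 185 FPKM in untreated WT, and their part in the 3 lower values was not tested.

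The difference between the responses was computed directly, as the log2 change in a knockout minus that in WT. In Tmem173-/- the interval excluded 0 for 8 of 10 ligands, where it did so for 29% of 10571 genes. Cd70, below 1 FPKM in both Tmem173-/- conditions, is among the 8 but not among the 10571, which were tested in both responses. The differences were -3.50 (-4.21 to -2.79) for Cd40, -3.28 (-4.65 to -1.92) for Cd70 and -2.50 (-3.52 to -1.48) for Tnfsf9, and between -1.93 and -1.25 for Cd274, Cd86, Cd80, Tnfsf4 and Cd83. It held 0 for Pdcd1lg2 (-0.40, -1.11 to 0.30) and Icosl (0.28, -0.37 to 0.92). In Irf1-/- the interval held 0 for all 10 ligands, where it excluded 0 for 6.58% of genes, and the estimates ran from -0.49 for Icosl to 0.52 (-0.19 to 1.23) for Cd40. At that share few intervals would exclude 0 among 10 genes. The Irf1 transcript was at 25.9 FPKM in untreated and 116 FPKM in treated Irf1-/- BMDCs, and its part in these responses was not tested.

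In BMDCs labelled Irf3/7-/- the interval excluded 0 for 4 of 10 ligands, where it did so for 8% of 10968 genes, and the 4 did not share a direction. The response of Cd40 was smaller by 0.82 (-1.53 to -0.12), and those of Cd83, Tnfsf9 and Cd70 were larger by 0.76 (0.04 to 1.47), 1.04 (0.07 to 2.0) and 1.41 (0.29 to 2.52). For Cd83 the treated level was near that of WT, at 347 against 325 FPKM, and the untreated level lower, at 90.6 against 143 FPKM. For Cd70 and Tnfsf9 the untreated level was lower and the treated level higher than in WT. For Cd40 the untreated level was higher, at 46.3 against 37.0 FPKM, and the treated level lower, at 305 against 432 FPKM. Irf3 was at 7.74 FPKM in the untreated and 20.2 FPKM in the treated condition labelled Irf3/7-/-. The 2 conditions thus differ in a targeted transcript, and its part in the response differences was not tested.

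**Figure D5:**
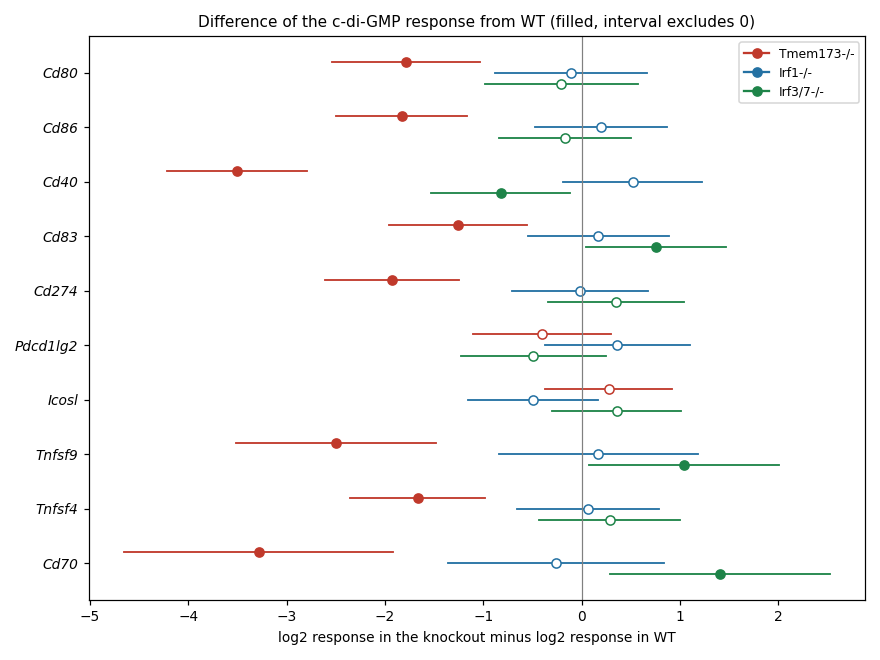
Log2 response to c-di-GMP in each knockout, as labelled, minus the log2 response in WT, with intervals; filled points have an interval that excludes 0. The 8 filled Tmem173-/- points lie between -3.50 and -1.25, and the 4 filled Irf3/7-/- points are Cd40 at -0.82, Cd83 at 0.76, Tnfsf9 at 1.04 and Cd70 at 1.41.

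The receptors that the ligands bind are mostly T cell genes. The list of 8 genes held these receptors and Cd40lg, which encodes the ligand of CD40. In the WT response 7 were tested and 1, Ctla4, was called higher, from 0.677 to 3.30 FPKM. Of all genes tested, 10.5% were called higher. In treated BMDCs labelled Irf3/7-/- 4 of 7 were called higher than in treated WT, where 4.61% of all genes tested were, and the largest differences were those of Ctla4 at 17.5 against 3.30 FPKM (log2 difference 2.37) and Cd28 at 11.8 against 2.21 FPKM (2.36). The other 2 were Icos and Pdcd1. All 7 tested T cell markers were called higher in the same comparison, and their part in the receptor values was not tested. In treated Irf1-/- 2 of 5 receptor genes tested, Cd28 and Ctla4, were called lower than in treated WT, as were 4 of 5 T cell markers tested. Of all genes tested, 544 of 11079 were called lower. Tnfrsf9, which encodes the 4-1BB receptor, was the most abundant receptor and was at 109 FPKM in untreated and 216 FPKM in treated WT, under the 2-fold threshold. Cd40lg was at 0.0358 FPKM or below in all conditions.

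Further surface molecules of the same families divided. Of 20 tested of 24, 9 were called higher and 2 lower after c-di-GMP in WT, with a median log2 change of 0.82, where 10.5% of all genes tested were called higher and 9.96% lower. The share of lower genes was thus near that of all genes. Btla, an inhibitory receptor that binds HVEM, was at 5.03 against 0.279 FPKM (log2 change 3.76) and Cd200, the ligand of an inhibitory myeloid receptor, at 119 against 18.9 FPKM (2.65). Cd24a was lower, at 64.3 against 227 FPKM (-1.82), and Tnfsf18 (GITRL) was the second lower gene. In treated Tmem173-/- 14 of 19 were called lower than in treated WT and 3 higher, where 13.5% and 12.9% of all genes tested were. Against treated WT, 1 of 19 was called higher and 3 lower in treated Irf1-/-. In treated BMDCs labelled Irf3/7-/- 1 of 19 was called higher and 2 lower. Of all genes tested, 7.56% and 7.3% were called in either direction in these comparisons. Tnfsf8 (CD30L) was at 77.5 FPKM in treated Irf1-/- and at 11.2 FPKM in treated BMDCs labelled Irf3/7-/-, against 34.1 FPKM in treated WT (log2 differences 1.18 and -1.59). Tnfrsf14, which encodes HVEM, was at 4.78 against 24.5 FPKM (-2.34) and Tnfsf10 (TRAIL) at 6.27 against 16.2 FPKM (-1.35) in treated Irf1-/-, and Tnfsf13b (BAFF) was lower in both treated IRF knockouts.

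Of 10 genes that signal downstream of CD40, 3 were called higher after c-di-GMP in WT and 0 lower, where 10.5% and 9.96% of all genes tested were. They were the adaptors Traf1, at 206 against 64.2 FPKM (log2 change 1.68), and Traf6, at 37.0 against 16.4 FPKM (1.17), and Nfkb2, a noncanonical NF-kappaB subunit, at 205 against 92.7 FPKM. The same 3 were called higher in Irf1-/-, and the same 3 and Relb in BMDCs labelled Irf3/7-/-. Of all genes tested, 9.67% and 10.2% were called higher in these genotypes. In Tmem173-/- 0 of 10 were called, where 0.0552% of all genes tested were called in either direction. Against treated WT, 0 of 10 were called in treated Irf1-/- or in treated BMDCs labelled Irf3/7-/-, where 7.56% and 7.3% of all genes tested were called, so few calls would be made among 10 genes at those shares.

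Of 8 genes that regulate the turnover of CD86 or PD-L1 protein, 0 were called after c-di-GMP in WT, where 20.5% of all genes tested were called in either direction. March1, a ubiquitin ligase that removes CD86 and MHC class II from the surface, was at 24.2 and 34.8 FPKM in Tmem173-/- without and with c-di-GMP, against 8.27 and 8.25 FPKM in WT, and was called higher in both. Cmtm6, which protects PD-L1 from degradation, was at 70.8 and 122 FPKM in untreated and treated WT and was called higher in Irf1-/- alone, at 139 against 69.1 FPKM. Whether that response differs between genotypes was not tested.

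Of 14 genes that rise in maturing dendritic cells, 12 were tested in WT and 8 were called higher, with 0 lower, where 10.5% of all genes tested were called higher and 9.96% lower. Il12b, the p40 subunit of IL-12 and IL-23, was at 148 against 4.59 FPKM (log2 change 4.98) and Il15ra, which presents IL-15, at 80.1 against 12.8 FPKM (2.64). In treated Irf1-/- these same genes were called lower than in treated WT, Il12b at 49.9 FPKM (log2 difference -1.56) and Il15ra at 39.6 FPKM (-1.01), whereas in treated BMDCs labelled Irf3/7-/- Il12b was higher, at 1474 FPKM (3.32). Ccr7, the chemokine receptor for migration to lymph nodes, was at 1257 FPKM in treated WT, 1026 FPKM in treated Irf1-/-, 1208 FPKM in treated BMDCs labelled Irf3/7-/- and 114 FPKM in treated Tmem173-/-.

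For each ligand the 3 genes with the most similar profile over the 8 conditions were sought among 11811 genes, by the root mean square difference of log2(FPKM + 0.1) after each gene's mean was removed. The closest were Ppp2r3a for Pdcd1lg2 (0.0898), Arl4c for Tnfsf4 (0.0916), Tor1aip2 for Cd86 (0.104), Aldh2 for Icosl (0.107) and Ktn1 for Cd274 (0.110). Arl4c followed Tnfsf4 in level too, at 33.8 and 119 FPKM in untreated and treated WT. The closest genes to Cd40 were Slfn5 (0.323), Cd200 (0.387) and Usp18 (0.403), of which Slfn5 and Usp18 are known as interferon-stimulated genes. The closest to Cd70 was Hes7 (0.411), to Tnfsf9 Laptm4b (0.23), and 4930520O04Rik was the closest to both Cd80 and Cd83. No ligand had another ligand among its 3 nearest genes. Among the ligands themselves the most alike were Cd86 and Tnfsf4 (0.247) and the least alike Cd40 and Icosl (2.58). These distances rest on 8 pooled values each and are descriptions.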

How the data were processed

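RNA-seq of 16 samples was read from 1 Cuffdiff gene table. According to the methods, TruSeq stranded mRNA libraries were sequenced with 35-bp paired ends, and Cuffdiff (version 1.06 in the submitters' processing notes) was run in DNAnexus. The authors deposited FPKM values, normalised to transcript length and mapped reads, with interval bounds and a status, after combining the 2 replicates of each condition. Aligner, annotation and Cuffdiff strand setting: not given in the sources used here. Although the notes name mm9, 21454 of 21681 loci overlapped the GENCODE M21 (GRCm38) gene of the same name, so coordinates are given on GRCm38. The column named for Tmem173 with the suffix GDP was taken as c-di-GMP-treated. The study's legends for its RNA-seq figures give a different c-di-GMP concentration from the sample labels. A set of 4 columns for another knockout was not used.

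Values were transformed as log2(FPKM + 0.1). Genes were tested when either condition reached 1 FPKM and the status was OK in both, and called at more than 2-fold with separate deposited intervals. Intervals of log2 differences and ratios take the half-width as 2 SD (delta method, added in quadrature). The upper bound of a ligand's value lay 15.3% to 69.4% above it. The depth of the libraries is unknown. Among 1395 low genes no step of single reads was visible. From each list the text names the 2 largest called changes in each direction with at least 5 FPKM, in the WT response and in both treated IRF knockouts, and other list genes were named after their values were seen. Members and lists were chosen with earlier results of these data known. Analysis used Python 3.11.15, NumPy 2.4.6 and pandas 2.3.3.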

Additional observations from a re-analysis of the deposited data

Results flagged for a closer look

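The responses of 8 ligands to c-di-GMP differed between Tmem173-/- and WT BMDCs by an interval that excluded 0. Of these, Cd70 was below 1 FPKM in both Tmem173-/- conditions. On the log2 scale the knockout's response minus that of WT was -1.79 for Cd80, -1.83 for Cd86, -3.50 for Cd40, -1.25 for Cd83, -1.93 for Cd274, -2.50 for Tnfsf9, -1.67 for Tnfsf4 and -3.28 for Cd70. In BMDCs labelled Irf3/7-/- it was -0.82 for Cd40, 0.76 for Cd83, 1.04 for Tnfsf9 and 1.41 for Cd70, and the bound nearest 0 was -0.12, 0.04, 0.07 and 0.29. These intervals come from the deposited bounds of pooled values and were not tested between separate cultures. The T cell marker sum was 170 FPKM in treated cells labelled Irf3/7-/- and 49.8 FPKM in treated WT, and its part in these values was not tested. Irf3 was at 7.74 FPKM in untreated and 20.2 FPKM in treated cells labelled Irf3/7-/-, and its part was not tested either.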

How the results depend on the processing

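Each count of called ligands and each ligand's log2 change were recomputed with another pseudocount, minimum FPKM, fold threshold, scaling or call rule. Of 108 recomputed counts 102 stayed within 1.5 times the reported count and 6 moved. Of 990 ligand values 967 kept their call, and 0 called values changed direction. With a 4-fold threshold the called ligands fell from 8 to 4 in the WT response and to 5 in the response of BMDCs labelled Irf3/7-/-, and to 0 both in untreated Tmem173-/- against WT and in treated Irf1-/- against treated cells labelled Irf3/7-/-. With a 1.5-fold threshold these last 2 counts were 5 and 3. The counts of 0 in treated Irf1-/- and in treated cells labelled Irf3/7-/- against treated WT stayed 0 under all 9 alternatives. Icosl lost its call in treated Tmem173-/- with a pseudocount of 1 FPKM (log2 difference 0.96). Cd70 was called in untreated Tmem173-/- by fold change alone and where the interval of the log2 difference had to exclude 0 (log2 difference -1.30 in both). The largest shift of a condition under median centring was -0.0343 log2 units. No paired analysis was possible because the table holds 1 pooled value per condition, and for the same reason leaving out each replicate in turn was not run. Depth could not be assessed, and the lowest ligand values (Cd70 and Tnfsf9) carry the widest intervals.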
